A study of Mus musculus with 4 samples.

Results

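Among the cells of mouse ovaries at E14.5, that is in the third week of gestation, 320 carried germ cell transcripts but no transcript of Sycp3, which encodes a lateral element of the synaptonemal complex. They were taken from a gate that asks for at least 3 of the germ cell genes Dazl, Ddx4, Dnd1, Mael, Dppa5a and Mov10l1 above 0 and the erythroid gene Alas2 at 0, and from that gate by Sycp3 at 0. The gate held 2390 of the 4787 cells of the E14.5 library, out of 19387 cells of the series, so the cells without Sycp3 made up 13.4% of it (exact binomial 95% interval 12.05 to 14.8). The other 2070 gate cells had at least 1 Sycp3 molecule and served as the comparison. The gate genes, Alas2 and Sycp3 were read from the same cells, so their values describe how the cells were chosen and are not findings, and every other gene is likewise given as a description.

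Fetal germ cells of the XX gonad arrive as primordial germ cells that keep a pluripotency network, with Pou5f1, Sox2 and Nanog, and divide by mitosis. Over a few days they shut this network down and enter meiosis, which needs Stra8, a transcription factor induced by retinoic acid, and its partner Meiosin. Cohesins of meiosis, the synaptonemal complex and the machinery that makes and repairs programmed DNA breaks are then switched on, and the cells do not take this step all at the same time.

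The gonads came from XX embryos of the C57BL/6 strain, without a genetic change or treatment named in the labels, and were dissociated and profiled whole with droplet-based 3′ single-cell RNA sequencing (10x Chromium, version 2 chemistry). There was 1 library for each day from E11.5 to E14.5, so no difference could be tested and stage cannot be told apart from library. The labels do not say how many embryos were pooled. Levels are given as counts of unique molecular identifiers (UMIs) of a gene scaled to 1000000 UMIs summed over a group of cells (CPM). All intervals are exact 95% intervals, binomial for shares and log2 ratios and Poisson for levels, and cover counting error only. Where a count was 0, the share it allows is given as 3 counts over the number of cells.

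The 4 libraries held 4787 to 4916 cells with medians of 11361 to 14258 UMIs, and 19 to 32 cell barcodes of the E14.5 library were also used in each of the others, among them 2 of the 320 cells in each case. The share of gate cells without Sycp3 was 64.5% in the E11.5 library, 55.1% and 45.8% in the next ones and 13.4% in that of E14.5. Depth did not run low in the E14.5 cells without Sycp3. Their median was 17602 UMIs, against 15367 in the gate cells with Sycp3.

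Most of the 320 cells looked like germ cells, but 53 did not do so cleanly. When the E14.5 library was clustered on its own, without the gate genes, Sycp3, the panels described below and cell cycle genes, 267 of the 320 (83.4%, 78.9 to 87.3) fell in clusters that carried germ cell markers and no set of another type. Another 31 fell in clusters with markers of germ cells and of another type, 27 of them in cluster 10, where 63 of 206 cells were called doublets, and 4 in cluster 11, which was led by erythroid genes such as Klf1. The last 22 (6.88%) lay in clusters of somatic type, against 13 of the 2070 cells with Sycp3 (0.628%, 0.335 to 1.07).

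Those 22 cells carried 4361 CPM of 33 pre-granulosa, interstitial and mesothelial markers, against 4448 in 1941 somatic cells of the same library. Dazl, an RNA-binding protein of germ cells, stood at 82.9 CPM in them and at 766 in the 267 cells of the germ-like clusters. As a gate gene and a marker that named the clusters, it only describes the choice. Xist, the RNA that coats the inactive X chromosome, was at 3004 CPM in the 22 cells, 2722 in the somatic cells and 27.7 in the 267 cells. The somatic markers and Xist were not left out of the clustering, so their levels too partly describe where the cells were placed. On these values the germ cell label does not hold for the 22 cells. The 31 cells of the mixed clusters had 1000.1 CPM of the somatic markers and 10 called doublets, and none of the 267 was called a doublet.

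The share in germ-like clusters rose with the number of gate genes. The gate genes are also 6 of the 12 germ cell markers that named those clusters, so this is partly built in. Of the 25 cells without Sycp3 that had exactly 3 gate genes, 3 lay in germ-like clusters, and of those with 4, 5 and 6 gate genes 25 of 30, 98 of 110 and 141 of 155 did. Just outside the gate, 155 cells had 2 gate genes and no Alas2, and 0 of them lay in a germ-like cluster, which allows a share of up to 1.94%. The condition on Alas2 kept out 97 cells with at least 3 gate genes, of which 51 were in germ-like clusters and 15 had no Sycp3.

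The 267 cells of the germ-like clusters, called the cells without Sycp3 from here on, were therefore set against the 1877 cells with Sycp3 in the same clusters. Of the 12 germ cell markers 6 are the gate genes, whose presence the rule fixes. The other 6 were all present, at 864 CPM for Rhox9, 325 for Stk31, 275 for Pou5f1, 96.6 for Dppa4, 20.4 for Tdrd12 and 9.80 for Gtsf1. All 12 markers also named the germ-like clusters, so these levels too describe the choice. Ddx4, an RNA helicase of germ cells, was at 191 CPM, against 239 in the cells with Sycp3. The 33 somatic markers summed to 128 CPM (118 to 138) in the cells without Sycp3 and 128 (124 to 132) in those with it. Over all 320 cells they summed to 481 CPM. Clusters with raised markers of another type had been left out, so the low levels of these lists in both groups are partly built in. By list, the cells without Sycp3, the cells with it and the somatic cells had 36.3, 42.5 and 1733 CPM of 12 pre-granulosa markers, 39.4, 42.9 and 1877 of 12 interstitial markers and 51.9, 42.6 and 838 of 9 mesothelial markers. Endothelial markers stood at 59.9, 34.4 and 185 CPM, of which Pecam1, also found on early germ cells, made up 44.2, 17.1 and 14.7, and immune markers at 11.9, 11.02 and 13.8. In the cells without Sycp3 the markers at 0 were Foxl2, Ptprc, Tie1, Emcn, Upk1b and Msln, besides Alas2 by the rule, and all others had UMIs. Foxl2 had only 2 UMIs in the somatic cells themselves. Red cell RNA was alike in both, with 1045 and 1055 CPM of 9 erythroid genes. The cells without Sycp3 were again the deeper ones, with a median of 17141 UMIs (quartiles 13895 to 21486.5, range 8282 to 34488), against 14993 in the cells with it. Their share of the germ-like gate cells was 8.02%, 8.58%, 13.1% and 20.1% in 4 depth bins of 536 cells each, from the shallowest to the deepest. The part of depth in the differences below was not tested, beyond the weighted and thinned values given beside them.

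The cells without Sycp3 also had less RNA of the rest of the meiotic program and more of the pluripotency network. A panel of 27 meiosis genes that leaves Sycp3 out summed to 2180.4 CPM in them and to 5178 in the cells with Sycp3, a log2 ratio of -1.25 (-1.28 to -1.22). A panel of 21 pluripotency genes, without the gate gene Dppa5a, summed to 2090.1 and 1232 CPM, a log2 ratio of 0.76 (0.73 to 0.79). Over all 320 and 2070 gate cells the log2 ratios were -1.33 (-1.36 to -1.30) and 0.69 (0.66 to 0.72).

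Across all genes the difference was mostly one of lower levels. A gene was counted where it had at least 50 UMIs over both groups and at least 20 CPM in the higher one, and was called at a CPM ratio of at least 2, a rule of size with no test. Of 5518 genes counted, 229 were lower in the cells without Sycp3 (4.15%) and 32 were higher (0.58%), with a median log2 ratio of -0.04 over all of them. For the 320 against the 2070 cells the calls were 217 lower (3.86%) and 54 higher (0.962%) of 5616. With the cells with Sycp3 weighted to the depth of those without, the calls in germ-like clusters went from 261 to 154, and with every cell thinned to 5000 UMIs they came to 456.

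Stra8, which starts the meiotic program, was at 378 CPM (361 to 396) in the cells without Sycp3 and 1041 in those with it, a log2 ratio of -1.46 (-1.53 to -1.39). The transcript was not missing from these cells. A median cell held 5 Stra8 UMIs (quartiles 2 to 10), and 226 of 267 held at least 1, against a median of 16 (9 to 23) in the cells with Sycp3. Of 7 regulators of meiotic entry, 6 were counted, 3 were lower and none was higher, with a median log2 ratio of -0.95. Meioc, which keeps germ cells in meiotic prophase, stood at 34.4 against 114 CPM (log2 ratio -1.73, -1.97 to -1.51). Taf4b, a subunit of the TFIID complex in germ cells, stood at 26.7 against 56.8 CPM. Zglp1, a zinc-finger factor of oogenic fate, was at 108 CPM in the cells without Sycp3 and 90.9 in those with it, within the limit of 2-fold. Meiosin, listed under the older symbol Gm4969, was too low to be counted, with 6 and 200 UMIs.

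The other genes of the synaptonemal complex, which zips paired chromosomes together, followed the same direction. All 7 were counted, 6 were lower and none was higher, and their median log2 ratio was -1.41. Sycp1, the transverse filament of the complex, was at 193 CPM in the cells without Sycp3 and 490 in those with it (log2 ratio -1.34, -1.44 to -1.25). Tex12, a part of the central element, was at 29.4 against 144 CPM (-2.29, -2.54 to -2.05), and Sycp2, the partner of Sycp3 in the lateral element, at 5.42 against 34.5 (-2.67, -3.29 to -2.11). Syce2, another central element gene, differed least, with 409 against 542 CPM. It also had a UMI in 50.5% of somatic cells.

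Cohesins of meiosis hold sister chromatids together from the last DNA replication onward. Of 4 genes 3 were counted, and only Smc1b passed 2-fold, at 602 against 1356 CPM (log2 ratio -1.17, -1.23 to -1.12). Rec8 was at 105 against 161 CPM (-0.62) and Stag3 at 72.0 against 136 (-0.92).

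Genes that act later, in the making and repair of DNA breaks, held some of the largest ratios. Of 26 genes of the chromosome axis and of recombination 15 were counted, 8 were lower and none was higher, with a median log2 ratio of -1.20. Prdm9, the methyltransferase that places the breaks, was at 2.09 CPM in the cells without Sycp3 and 40.2 in those with it (-4.27, -5.33 to -3.38), where the somatic cells had 1.04. Ankrd31, needed for breaks in the region where X and Y pair, had 1.46 against 21.3 CPM (-3.87, -5.19 to -2.82). Dmc1, the meiotic recombinase, was at 19.2 against 55.8 CPM (-1.54), and Hormad1, an axis protein, at 46.9 against 108 (-1.20). Psmc3ip, a cofactor of strand exchange, was at 45.1 against 44.0 CPM, within 2-fold.

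Among genes of the later oocyte, Figla and Taf7l were lower in the same cells. Figla, which drives oocyte genes of follicle formation, had 3.96 against 48.8 CPM (log2 ratio -3.62, -4.36 to -2.97), and Taf7l, a germ cell relative of a TFIID subunit, 23.2 against 188 (-3.02, -3.30 to -2.75). These were the 2 genes called lower of 5 counted from a list of 14 oocyte genes, and the median log2 ratio of the list was -0.76. Of 18 piRNA pathway genes, which silence transposons, 11 were counted and 2 were lower, namely Gtsf1 at 9.80 against 29.97 CPM and Tex101, a surface protein placed in this list, at 67.6 against 269. None of 9 genes of the fetal male germ line reached the minimum, and Nanos2, which marks male commitment, had 2 UMIs in the 267 cells.

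**Figure D1:**
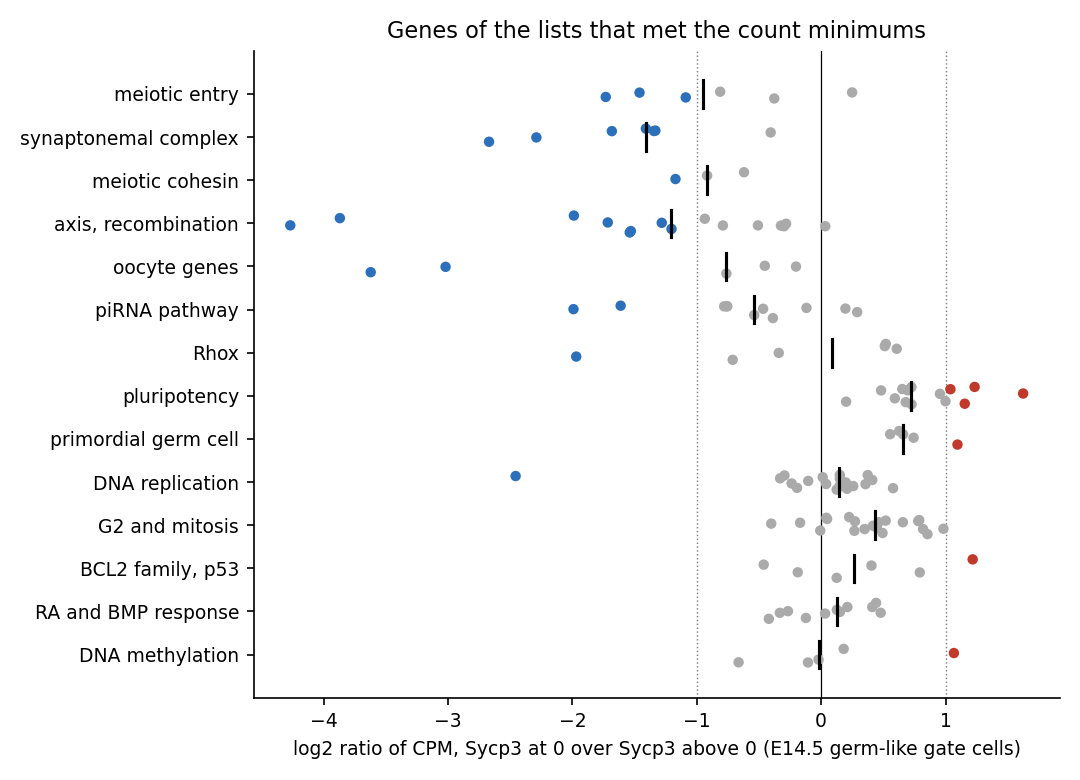
Log2 ratio of CPM in E14.5 germ-like gate cells, Sycp3 at 0 (n = 267 cells) over Sycp3 above 0 (n = 1877 cells), for each counted gene of 14 lists. Each point is a gene, black bars are list medians and dotted lines mark 2-fold. Synaptonemal complex and recombination genes lie mostly to the left of -1, while the 14 pluripotency genes all lie right of 0.

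Pluripotency genes were the counterpart. Of the 21 genes 14 were counted, all 14 had a log2 ratio above 0, 4 were called higher and none lower, and the median was 0.73. Pou5f1, the central factor of the network and one of the markers given for these cells, was at 275 CPM (260 to 290) against 170, a log2 ratio of 0.70 (0.61 to 0.78). Utf1, a chromatin factor of pluripotent cells, was at 373 against 187 CPM (1.00, 0.92 to 1.08), just under the limit, and Dppa3, a maternal factor that protects methylation in the zygote, at 734 against 458 (0.68). Gdf3, a ligand of the TGF-beta family, had 29.2 against 9.48 CPM (1.62, 1.32 to 1.92), and L1td1, an RNA-binding protein, 34.6 against 14.7 (1.23, 0.97 to 1.49). Dppa2 and Tcl1 were the other genes called higher, with log2 ratios of 1.04 and 1.15. Nanog missed the minimum of 20 CPM, with 19.6 against 5.71 CPM (1.78, 1.40 to 2.15).

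Factors of the primordial germ cell had the same direction. All 5 of the genes counted from a list of 10 had log2 ratios above 0, with a median of 0.66. Tfap2c, which helps specify germ cells, passed 2-fold, at 43.6 against 20.4 CPM (1.10, 0.86 to 1.32). Kit, the receptor that guides and sustains migrating germ cells, was at 49.2 against 31.9 CPM, and Ifitm3, a surface protein of early germ cells, at 509 against 304.

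Cell cycle genes differed by less. Of 20 genes of G2 and mitosis, all were counted, 17 were above 0, none passed 2-fold, and their median log2 ratio was 0.43. Aurkb, a kinase of chromosome segregation, was at 24.8 against 12.6 CPM (0.98, 0.67 to 1.28), and Ccnb1, the cyclin that drives entry into mitosis, at 181 against 100.2 (0.85, 0.74 to 0.96). Of 21 genes of DNA replication 19 were counted with a median of 0.15, and Ccne2, a cyclin of the G1 to S transition, was lower at 10.6 against 58.4 CPM (-2.46, -2.89 to -2.06). Cdkn2a, which encodes cell cycle inhibitors, was lower too, at 65.1 against 141 CPM (-1.12, -1.29 to -0.95).

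Single genes of other lists passed 2-fold. Trp53, which encodes the p53 tumour suppressor, was at 106 against 45.5 CPM (1.22, 1.07 to 1.37), the 1 gene called of 6 counted from 17 genes of the BCL2 family and p53 pathway. Tet1, an enzyme that oxidises methylated DNA, was at 75.5 against 36.0 CPM (1.07, 0.89 to 1.24), while Dnmt1, which maintains methylation, was at 165 against 177. None of 11 counted genes of the response to retinoic acid and BMP passed 2-fold. Among the X-linked Rhox homeobox genes, 1 of 6 counted was lower, Rhox13 at 14.2 against 55.5 CPM, while Rhox5, Rhox6 and Rhox9 had log2 ratios of 0.51, 0.52 and 0.61. Reads of such gene families can be split among near-identical copies, so these values are uncertain.

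The 10 highest ratios belonged to Morc1 (21.5 against 5.74 CPM), a repressor of transposons in the germ line, then Gdf3, 1700019D03Rik, Rgcc, Pecam1, Calcoco2, Khdc1a, Cyp20a1, L1td1 and Mt2. Pecam1, an adhesion molecule of endothelium and early germ cells, was at 44.2 against 17.1 CPM. The 10 lowest were Prdm9, Lypd4, Ankrd31, H2-D1, Tro, Figla, H2-Ab1, Dmrtc2, Ccdc79 and Taf7l. Of these, H2-D1 and H2-Ab1 encode chains of class I and class II antigen-presenting molecules, with 4.59 against 66.5 and 3.13 against 35.8 CPM, and H2-D1 also shares sequence with its relatives. Ccdc79, also known as Terb1, ties meiotic telomeres to the nuclear envelope and had 3.55 against 34.4 CPM. Over all 320 cells, Kctd14 (180 against 55.4 CPM), Car2 and Cst8 were among the 5 highest. Kctd14 stood at 1233 and Cst8 at 201 CPM in the somatic cells, and within germ-like clusters Kctd14 was at 22.7 against 18.4 CPM and Cst8 missed the minimum. Car2, the first leading gene of cluster 11, stood at 21.2 CPM in the somatic cells. In the cells without Sycp3 of the germ-like clusters it was at 5.21 CPM.

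Single cells were compared after each had been thinned to 5000 UMIs, which left out 0 cells. Stra8 had a UMI in 61.4% of cells without Sycp3 (55.3 to 67.3), 92.4% of cells with it and 6.18% of somatic cells, whose median depth was 9857 UMIs, and in 84.6%, 97.7% and 12.8% before thinning. Sycp1 had one in 52.8%, 82.4% and 2.42% of the thinned cells, and in 85.4%, 96.8% and 5.67% before. Pou5f1 had one in 69.7% (63.8 to 75.1), 47.8% and 1.91%, and in 95.1%, 75.1% and 3.71% before. Figla was found in 0.749% of thinned cells without Sycp3 (0.0908 to 2.68), 0.258% of somatic cells and 23.3% of cells with it. As summed CPM, Figla stood at 3.96 (2.39 to 6.19) in the cells without Sycp3 and 0.727 (0.415 to 1.18) in somatic cells. Before thinning its shares were 6.37%, 0.824% and 44.5%. Ccnb1, which dividing somatic cells also use, was found in 47.9% of thinned cells without Sycp3, 23.5% of those with it and 18.8% of somatic cells, and in 78.7%, 41.8% and 26.6% before thinning.

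Stra8 and Pou5f1 transcripts were found together in many of the same cells. Both had a UMI in 41.2% of the thinned cells without Sycp3 (35.2 to 47.4) and 42.2% of those with it. What differed was the rest. Pou5f1 alone was found in 28.5% (23.1 to 34.3) of the cells without Sycp3 and 5.65% of those with it, and Stra8 alone in 20.2% (15.6 to 25.5) and 50.2%. In somatic cells both were found in 0.206%. Without thinning, both were found in 79.8% of the cells without Sycp3 and 72.9% of those with it.

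A thinned cell without Sycp3 held a median of 10 UMIs of the meiosis panel (quartiles 7 to 14), against 26 (15 to 39) with Sycp3, 5 (3 to 8) at E13.5 and 1 in somatic cells. The groups overlapped. Of the 267 cells 6 lay above the median of the cells with Sycp3, and 184 of the 1877 cells with Sycp3 lay below the median of those without. For the pluripotency panel the medians were 10 (7 to 13) and 5 (2 to 8), and 24 of the 267 cells lay below the median of the cells with Sycp3.

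**Figure D2:**
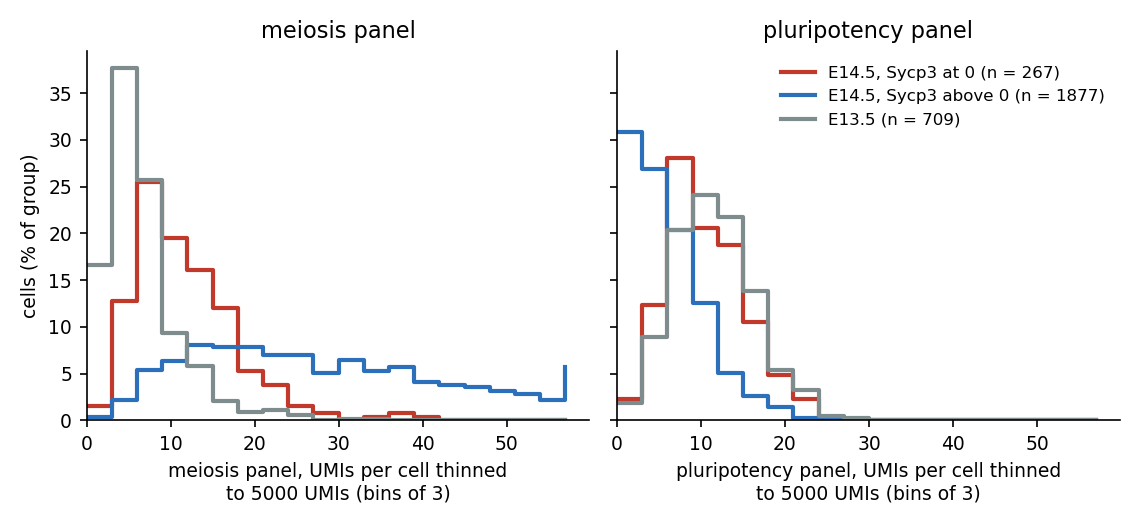
UMIs of the meiosis panel (left) and pluripotency panel (right) per cell after thinning to 5000 UMIs, in bins of 3 UMIs with the last bin open upward, as a percentage of each group. The meiosis curve of the E14.5 cells without Sycp3 (median 10) lies between those of E13.5 (median 5) and of the E14.5 cells with Sycp3 (median 26).

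The border set by the first Sycp3 molecule was not a sharp one. The 300 germ-like cells with exactly 1 Sycp3 UMI had 2624 CPM of the meiosis panel and 1937 of the pluripotency panel. Against them, 1 of 5196 counted genes was higher in the cells without Sycp3 (0.0192%), the unnamed locus Gm29666 at 46.9 against 20.7 CPM, and 0 were lower (0.0%). Stra8 was at 378 against 523 CPM.

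Over rising Sycp3 counts of 0, 1, 2, 3 to 5, 6 to 10 and 11 or more, the meiosis panel stood at 2180.4, 2624, 3137, 4339, 6568 and 9204 CPM. The pluripotency panel stood at 2090.1, 1937, 1755, 1359, 796 and 383. Stra8 stood at 378 CPM in the first class, 1439 in the class of 6 to 10 UMIs and 1374 in the last. From the first class to the last, Prdm9 went from 2.09 to 143 CPM and Pou5f1 from 275 to 57.8. Median depth ran the other way, from 17141 UMIs at 0 to 13892 at 11 or more, and a class made by a UMI count also depends on depth.

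**Figure D3:**
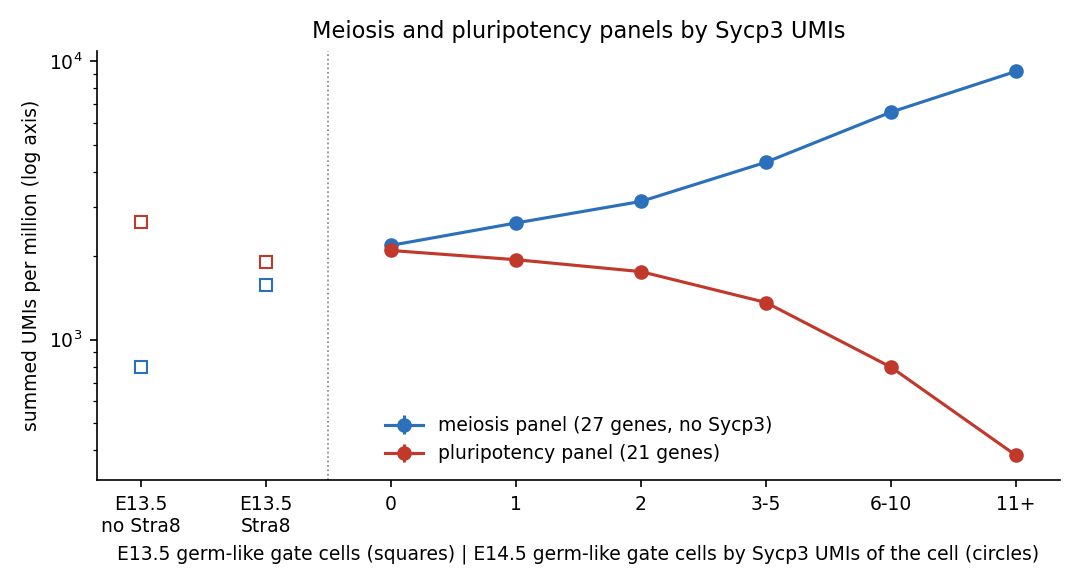
Summed CPM (log axis) of the meiosis panel (blue) and the pluripotency panel (red). Circles are E14.5 germ-like gate cells by the Sycp3 UMIs of the cell and squares are E13.5 germ-like gate cells without and with Stra8, with error bars of 2 counting standard errors that are smaller than the symbols. The meiosis panel includes Stra8, so the split of the squares sets part of their difference. The panels stand at 2180.4 and 2090.1 CPM at 0 Sycp3 UMIs and part to 9204 and 383. They sum different genes and abundant ones weigh most, with Smc1b at 602 and Dppa3 at 734 CPM at 0 Sycp3 UMIs. Their nearness at 0 therefore marks no balance.

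**Figure D4:**
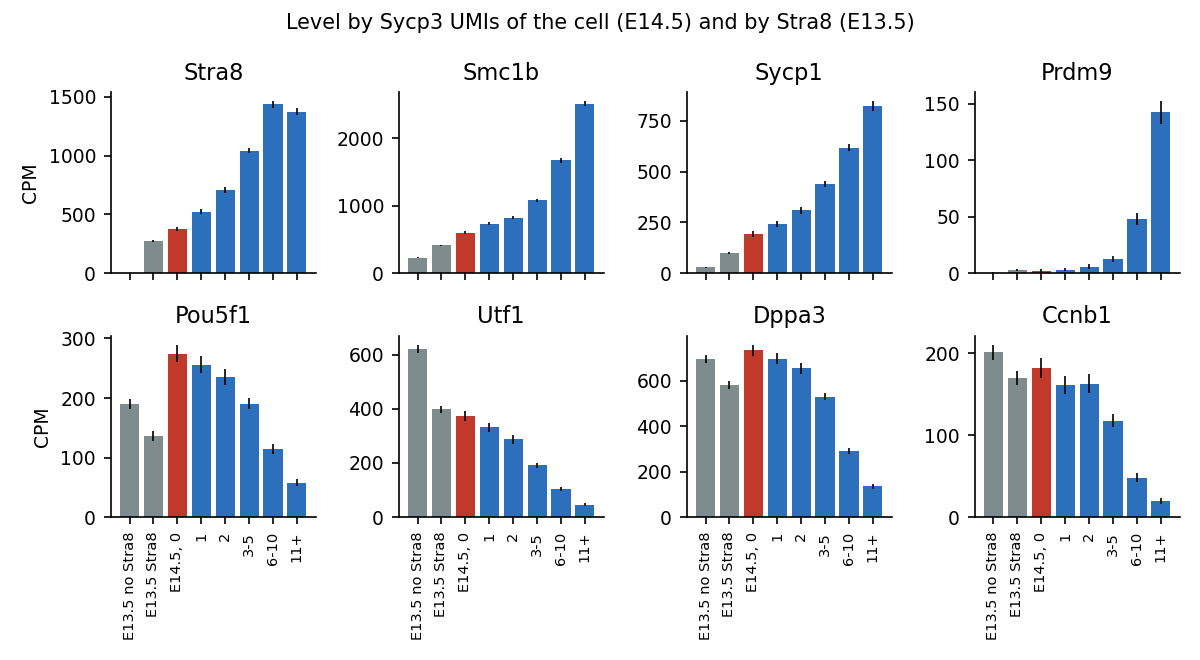
CPM of 8 genes in E13.5 germ-like gate cells without and with Stra8 (grey), E14.5 cells with 0 Sycp3 UMIs (red) and E14.5 cells by Sycp3 UMIs (blue), with exact Poisson 95% intervals. Stra8, Smc1b and Sycp1 are already well above 0 in the red bar while Prdm9 is at 2.09 CPM. Pou5f1 has its highest bar there, at 275 CPM (260 to 290). Its level at 1 Sycp3 UMI is 256 CPM (243 to 270), and the intervals overlap.

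Cells without Sycp3 gathered in the clusters where the meiotic program of the other cells was lowest. Neither Sycp3 nor the panels had been used for clustering. Other genes lower in the cells without Sycp3, such as Dmrtc2 and Tex101, were not left out, so the clusters are not independent of that program. Of the 267 cells 242 (90.6%, 86.5 to 93.8) lay in clusters 6, 7 and 8, as did 35.8% of the cells with Sycp3. Clusters 6 and 7 were led by Phlda2, an imprinted gene, and by Dppa3 and Utf1. They held 113 of 382 (29.6%) and 90 of 276 (32.6%) gate cells without Sycp3, cluster 8 held 39 of 256 (15.2%), and cluster 4, led by Dmrtc2 and Sycp3, held 0 of 434, which allows up to 0.691%. Within clusters 6, 7 and 8, where cells are alike by construction, 0 of 5179 counted genes passed 2-fold in either direction (0.0%). The meiosis panel still stood at 1999 against 2597 CPM there, a log2 ratio of -0.38 (-0.41 to -0.34), with all 15 counted genes below 0, and the pluripotency panel at 2163 against 1944 CPM (0.15, 0.12 to 0.19).

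**Figure D5:**
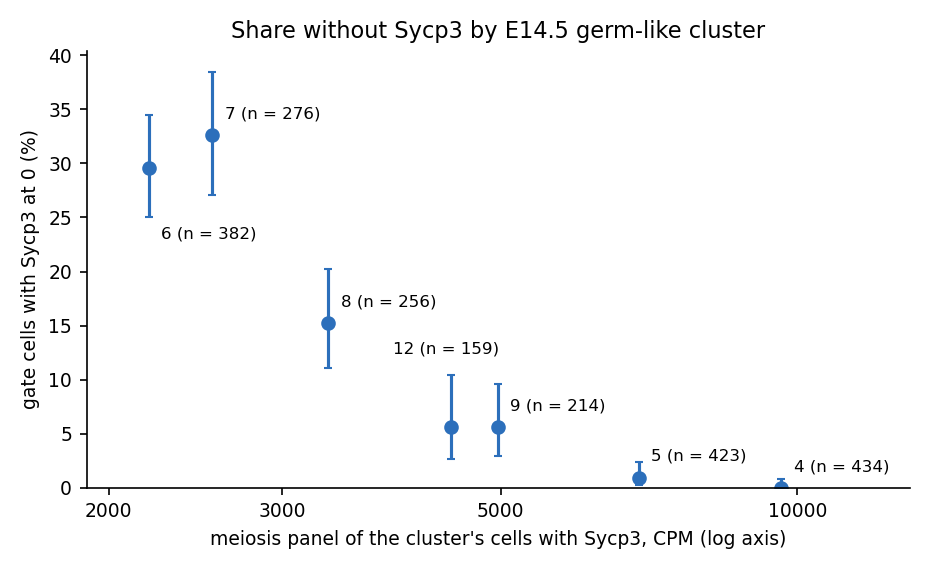
Share of gate cells with Sycp3 at 0 (exact binomial 95% interval) in each of the 7 E14.5 germ-like clusters, against the CPM of the meiosis panel in the cluster's cells with Sycp3 (log axis), with the cluster number and its gate cells beside each point. The share is 29.6% and 32.6% in clusters 6 and 7 and 0 of 434 in cluster 4.

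The cells without Sycp3 were not alike among themselves. In 41 of the 267 no Stra8 UMI was found, at a median depth of 19340 UMIs against 17055 in the 226 with Stra8. These 41 had 1264 CPM of the meiosis panel and 2873 of the pluripotency panel, where the 226 had 2359 and 1938. The meiosis panel includes Stra8, which the split sets to 0 in the 41 cells. Stra8 stood at 452 CPM in the 226, so part of the gap in that panel is fixed by the choice. Of 5341 counted genes 118 were lower (2.21%) and 54 higher (1.01%) in the 41 cells, with Stra8 itself among the lower ones. Rec8, the meiotic cohesin, was at 35.9 against 118 CPM (log2 ratio -1.72, -2.32 to -1.17), Sycp1 at 98.7 against 211 (-1.10, -1.45 to -0.76) and Meioc at 3.84 against 40.4, from 3 UMIs in the 41 cells. Nanog was at 41.0 against 15.4 CPM (1.41, 0.75 to 2.05), L1td1 at 78.2 against 26.2 (1.58, 1.10 to 2.05) and Trp53 at 187 against 90.2 (1.05, 0.77 to 1.33). Pou5f1 stood at 367 against 257 CPM, within 2-fold. Since the 41 cells were picked by Stra8, these values too are a description.

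Set against the stage before, the cells without Sycp3 had more of the meiotic program and slightly less of the pluripotency panel. They were the shallower ones here, with a median of 17141 UMIs against 24530 in the germ-like gate cells of E13.5. Over all E14.5 gate cells without Sycp3, the meiosis panel log2 ratio to all E13.5 gate cells was 0.81. With every cell thinned to 5000 UMIs it was 0.79. The part of depth in the gene calls below was not tested. The 709 germ-like gate cells of E13.5, with and without Sycp3, had 1174 CPM of the meiosis panel and 2274 of the pluripotency panel, so the log2 ratios of the E14.5 cells without Sycp3 to them were 0.89 (0.86 to 0.93) and -0.12 (-0.15 to -0.09). Of 5265 counted genes 35 were higher (0.665%) and 29 lower (0.551%), with a median log2 ratio of 0.11 over all genes. From the meiosis panel 7 of 14 counted genes were higher and none lower. Stra8 was at 378 against 133 CPM (1.51, 1.42 to 1.60), Sycp1 at 193 against 63.5 (1.60, 1.48 to 1.73), Meioc at 34.4 against 11.9 (1.54) and Rec8 at 105 against 44.6 (1.23). From the pluripotency list 2 of 17 counted genes were lower, Klf2 at 22.9 against 72.4 CPM (-1.66, -1.95 to -1.38) and Sox15 at 11.9 against 25.7 (-1.11). Utf1 was at 373 against 512 CPM and Pou5f1 at 275 against 164, a log2 ratio of 0.75 (0.65 to 0.84).

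The E13.5 cells were also split by Stra8, which is itself a gene of the meiosis panel. Finding a Stra8 UMI in a cell also depends on its depth. Median depth was 25913 UMIs in the germ-like E13.5 cells without Stra8 and 22688.5 in those with it. Against the 366 germ-like E13.5 cells with a Stra8 UMI, the meiosis panel stood at 2180.4 against 1569 CPM (log2 ratio 0.47, 0.44 to 0.51), and 14 of 5254 counted genes were higher (0.266%) and 17 lower (0.324%). None of the meiosis panel passed 2-fold. Pou5f1 was among the 14 genes, at 275 against 136 CPM (1.01, 0.90 to 1.12), as were Tex101 at 67.6 against 27.2 (1.31) and Rnf17, a piRNA pathway gene, at 69.5 against 34.5 (1.01). Globins, which are made by red cells, differed between the libraries in the same comparison, with the adult-type Hbb-bs at 453 against 121 CPM and the embryonic Hbb-y at 74.5 against 350. Jund, picked from a list of 11 stress genes, was at 64.7 against 166 CPM. The part of red cell RNA and of handling in these differences between libraries was not tested.

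Over the stages, all gate cells at E11.5 and E12.5 had 493 and 701 CPM of the meiosis panel and 2915 and 2725 of the pluripotency panel. These libraries were not clustered, so their gate cells were not limited to germ-like clusters as the later ones were. Median depth of the gate cells was 31093.5 UMIs at E11.5 and 27927 at E12.5. Germ-like E13.5 cells without Stra8 had 798 and 2637 CPM of the panels, and those with Stra8 1569 and 1893. Part of that step in the meiosis panel is set by the split, as the panel includes Stra8, at 0 and 273 CPM. The E14.5 cells without Sycp3, at 2180.4 and 2090.1, lay above each of these groups in the meiosis panel and below the E14.5 cells with Sycp3.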

How the data were processed

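The deposited table holds natural log values that the authors made from UMIs scaled to 10000 per cell with 1 added, as the values themselves show. Cell Ranger 2.2.0 and the mm10 genome are named in the submitters' processing notes. The filters on cells are not given in the sources used here. All 69792436 values above 0 (100%) came out as whole UMIs within a relative tolerance of 1e-06, so UMIs were recovered and used, where the plan had assumed counts. The 19321 genes and 19387 cells were all kept, and the lowest E14.5 cell had 7854 UMIs.

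E13.5 and E14.5 were each clustered alone with scanpy 1.11.5 (2000 variable genes, 30 principal components, 15 neighbours, Leiden resolution 1, seed 1). Scrublet in scanpy called 94 doublets at E14.5 (1.96%), which were kept and are counted where they fall. A marker counted as raised at 2 times a low-ranking cluster, with 5 CPM added to both, and a UMI in 10% of the cells. A germ-like cluster had at least 3 raised germ cell markers, fewer than 3 of any other type, and no marker of another type among its leading genes. Levels were summed over cells, because cells of 1 library are not replicates. The script of the size rule was checked on simulated counts, a check of the code and not a test of any gene. Named genes are those of the lists, the 10 highest and 10 lowest ratios within germ-like clusters and the 5 highest and 5 lowest over all gate cells. Gm29666 and cluster-leading genes were named after their values were seen. The cells, lists and rules were chosen with earlier results of these data known. The alternatives were weighting for depth, thinning, stricter and looser gates, germ-like clusters, removal of doublets, another scaling, other size limits and subsets of clusters or E13.5 cells. The values of 1 gene of the recombination list are not reported here.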

Additional observations from a re-analysis of the deposited data

How the results depend on the processing

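No result changed direction under the alternatives run. No paired analysis was possible because each stage has 1 library. The meiosis panel log2 ratio of all 320 cells, -1.33, was -1.15 with depth weighting, -1.41 thinned, -1.18 with at least 5 gate genes, -1.25 in germ-like clusters, -1.30 with median-of-ratios scaling and -0.38 in clusters 6, 7 and 8. The pluripotency ratio of 0.69 was 0.54 with depth weighting, 0.80 thinned, 0.76 in germ-like clusters and 0.15 in clusters 6, 7 and 8. The 271 genes past 2-fold became 147 with depth weighting, 442 thinned, 0 in clusters 6, 7 and 8, 1110 with no minimum CPM and 32 at 4-fold. Within germ-like clusters 261 became 154, 456, 0, 1047 and 32. With depth weighting, 12 of the 32 genes higher and 142 of the 229 lower were called, and no others, and thinning kept 29 and 206. Of the 20 genes with the highest or lowest ratios, depth weighting moved 4, thinning 8 and restriction to clusters 6, 7 and 8 all 20 beyond their intervals, there with Lypd4 at -0.02 in place of -4.19. The share of gate cells without Sycp3, 13.4%, was 18.2% with a gate of 2 genes and 35.9% thinned. The somatic marker level of 481 CPM was 258 with at least 5 gate genes, 128 in germ-like clusters and 451 without doublets. The meiosis ratio to all E13.5 gate cells, 0.81, was 0.89 in germ-like clusters, 0.38 to those with Stra8 and 1.38 to those without. The values split by Stra8 depend in part on that choice, as Stra8 is in the panel. The values for clusters 6, 7 and 8, for E13.5 cells split by Stra8, for the 20 genes, and 456 and 32 in germ-like clusters were chosen after seeing the data. Depth limits genes under 20 CPM, among them Gm4969 and most oocyte genes, and 1 library per stage leaves variation between embryos unmeasured.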
